A study of Mus with 4 samples.

Results

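The genes described here encode the enzymes that add methyl groups to histones or take them off, with their close relatives. They were chosen by symbol: names that begin with Kmt, Kdm, Setd, Ehmt, Nsd, Suv39h or Ezh, the numbered PRDM genes other than *Prdm16*, and *Dot1l*, Whsc1 and *Jarid2*. Of 11431 genes with an m6A peak in either of 2 peak lists, 49 met this rule. They fell into 25 genes classed by name as methyltransferases (writers), 16 demethylases (erasers), 7 PRDM genes and *Jarid2*, a cofactor of the Polycomb complex PRC2 without demethylase activity. The writers include 5 SET domain genes with other or no histone activity, *Kmt2e*, *Setd3*, *Setd4*, *Setd5* and *Setd6*. A further 13 protein coding symbols that met the rule had no peak in either list. These were *Ezh2*, *Ezhip*, *Kdm4d*, *Kdm8*, *Nsdhl*, *Setdb2*, *Suv39h2* and 6 PRDM genes. *Nsdhl*, an enzyme of sterol synthesis, matched by its letters only.

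The study mapped m6A, the methylation of adenosine inside mRNA, by MeRIP-seq in interscapular brown adipose tissue (iBAT) of C57BL/6 mice that were 8 weeks old and on normal chow. In MeRIP-seq, fragments of poly(A)+ RNA are pulled down with an antibody to m6A (IP) and sequenced beside RNA that was not pulled down (input). The control group was *Wtap* flox/flox and the knockout group, *Wtap*-BKO, was *Wtap* flox/flox with UCP1-iCre, so both carried the floxed alleles. The Ucp1 promoter drives Cre in brown adipocytes, and the other cells of the tissue keep *Wtap*, whose product is a subunit of the m6A methyltransferase complex. Each genotype had 1 IP and 1 input sample, and each sample was pooled from 8 mice.

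Histone methylation marks chromatin by the residue that carries it. Methylation of H3K4 marks promoters and enhancers in use and is written by the COMPASS enzymes of the KMT2 and SETD1 families. H3K9 and H3K27 methylation accompany silenced chromatin and are written by SUV39H, EHMT and SETDB enzymes and by EZH enzymes, respectively. SETD2 and the NSD enzymes methylate H3K36, DOT1L methylates H3K79 and the KMT5 enzymes methylate H4K20. The KDM enzymes with peaks here are classed as removing methylation of H3K4, H3K9, H3K27 or H3K36. Several members, among them *Ehmt1* and *Kdm6b*, are known for their part in brown adipocyte differentiation.

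There was 1 pooled sample of each kind, so no difference between the genotypes could be tested and values are side by side descriptions of 2 lists. The lists were called separately and give no read counts, so depth is unknown. Where a list shows no peak, all that can be said is that nothing there met the threshold the authors set. The strength of a peak is given as the log10 of its false discovery rate (FDR), which is more negative for stronger peaks, and as its rank percentile, the share of peaks of its own list with a larger FDR. Only percentiles set strength against strength between lists. The FDR values of both lists are given as they stand and share no scale. A rank by FDR need not match a rank by the IP to input ratio. Member peaks had median percentiles of 53.9 (control) and 54.9 (knockout) by FDR, and of 45.7 and 46.7 by that ratio. RNA levels of the genes were not taken into account, and their part in the ranks was not tested. A peak counted as found if a same-strand peak of the other list had 1 or more exonic bases in common with it. *Wtap* itself had 4 peaks in each list, which do not measure its deletion. Brown adipocyte markers had peaks in both lists for 9 of 10 genes. In bulk tissue, fewer cells of a type and less RNA per cell cannot be told apart.

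The members carried many peaks per gene. The control list held 162 peaks on 48 of the genes, 3.38 per gene against 1.89 per gene over all 9732 genes in that list. The knockout list held 158 peaks on 45 of them, 3.51 per gene against 1.92 over 9713 genes. In the control list, 22 of 48 members (45.8%) had 3 or more peaks, where 21.2% of all genes did. In the knockout list this was 23 of 45 (51.1%), with 22.7% of all genes. The high counts lay with the writers, at 4.40 and 4.70 peaks per gene, while the erasers had 2.13 and 2.19. Members were also long genes, with a median span of 56332 bp in the control list against 24053 bp over all genes with a known span, and the part of gene length in the peak counts was not tested.

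**Figure D1:**
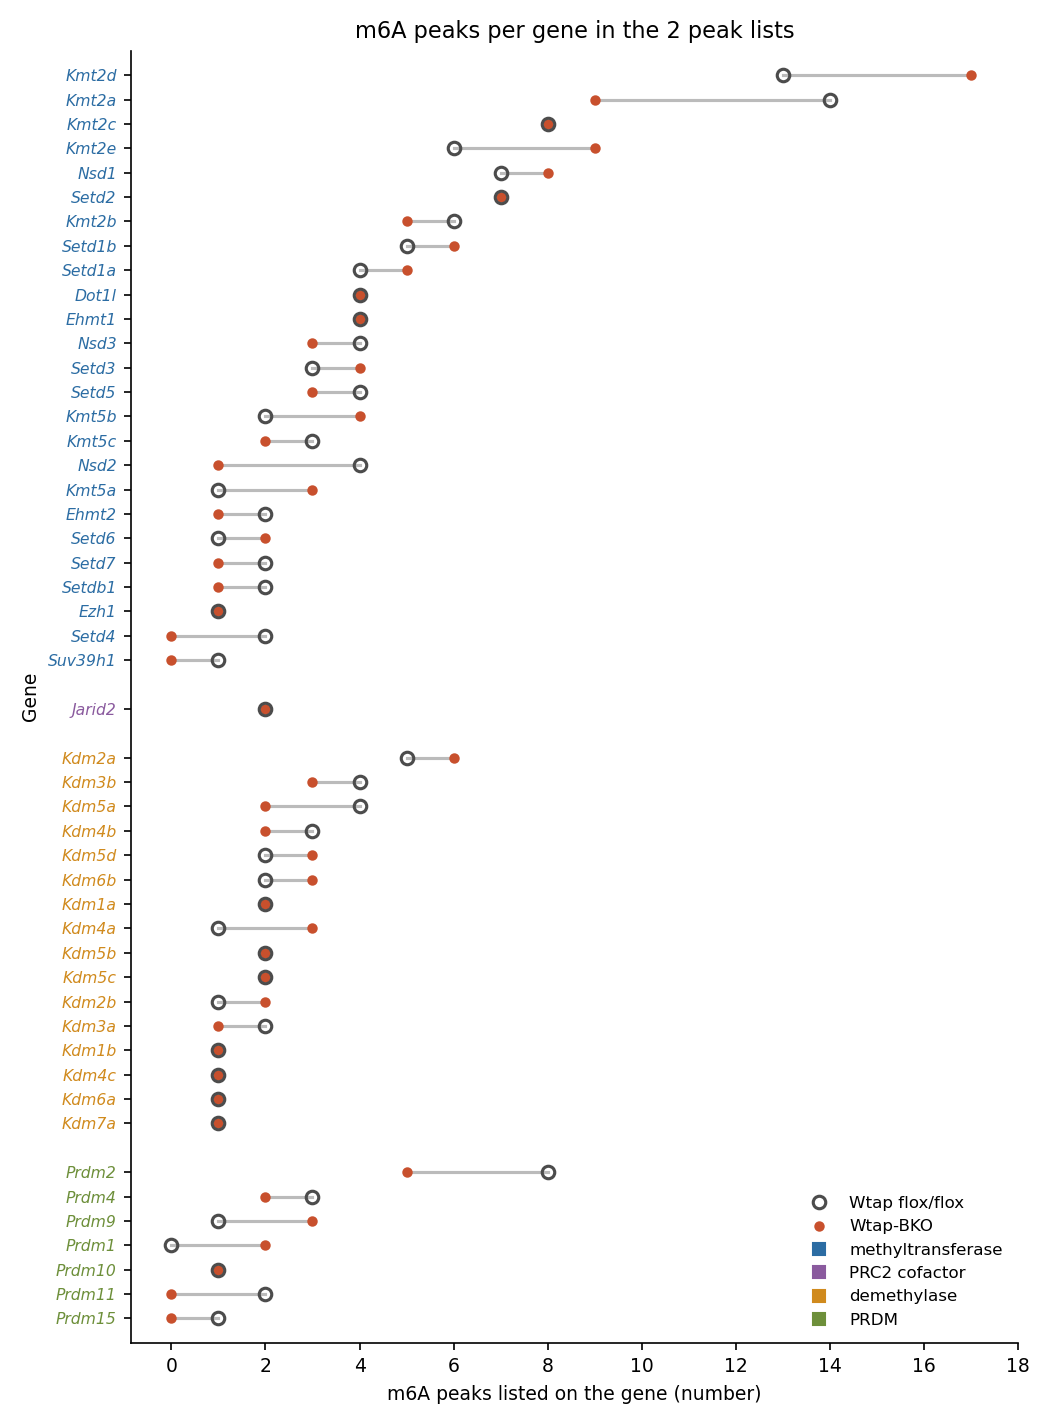
Number of m6A peaks (horizontal axis) listed on each member gene (vertical axis) in the *Wtap* flox/flox list (open circles) and the *Wtap*-BKO list (filled circles), with label colours for the roles. *Kmt2d* and *Kmt2a* stand apart at the right, 14 genes have equal numbers in both lists, and the genes at 0 in 1 list are *Setd4*, *Suv39h1*, *Prdm1*, *Prdm11* and *Prdm15*.

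Peak numbers per gene moved both ways between the lists. Of the 49 genes, 19 had fewer peaks in *Wtap*-BKO, 14 had the same number and 16 had more, where over all genes 31.3% had fewer and 33.3% had more. Writers divided into 11 with fewer, 5 with equal and 9 with more, and erasers into 4, 7 and 5. The widest drop was from 14 to 9 peaks on *Kmt2a* and the widest gain was from 13 to 17 on *Kmt2d*.

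Most members, 44 of 49 (89.8%), had peaks in both lists, as did 70.1% of all genes. All 16 erasers and 23 of 25 writers did, but only 4 of the 7 PRDM genes. How far this count goes with the number of peaks per gene was not tested. Peaks in the control list only were found on 4 members, and over all genes 15% had this pattern. They were *Setd4*, *Suv39h1*, *Prdm11* and *Prdm15*. Their peaks were weak: the strongest of each gene had a log10 FDR of -2.71 for *Setd4*, -3.67 for *Suv39h1*, -4.20 for *Prdm11* and -2.75 for *Prdm15*, all under percentile 30.5 of the list. The *Suv39h1* peak also overlapped a peak on the opposite strand. *Prdm1*, which encodes the repressor BLIMP1, was the only member with peaks in the knockout list alone, a pattern of 14.9% of all genes. Its 2 peaks had log10 FDR values of -3.44 and -2.72.

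The H3K4 writers had the most peaks per gene of the groups by mark, 7.43 and 7.29. Their 7 genes held 52 control peaks and 51 knockout peaks, and 43 of the 52 control peaks were found in *Wtap*-BKO. This was 82.7% (Wilson interval 70.3 to 90.6), where 67.8% of all control peaks were found. The interval covers counting error only, and peaks of 1 gene are not independent. Of the 52, 14 lay on *Kmt2a* and 13 on *Kmt2d*, so the share cannot be called high. *Kmt2d*, which writes H3K4 monomethylation at enhancers, had 13 control peaks covering 5349 exonic bases and 17 knockout peaks covering 4723. Of its control peaks 12 were found. The strongest, at chr15:98843806-98844255 (GRCm38, minus strand), had a log10 FDR of -43.3 (percentile 87.4) and the knockout peak on it -25.4 (percentile 84.6). The one control peak not found lay at chr15:98853278-98853428 with a log10 FDR of -7.00, and 3 of the 17 knockout peaks were not found in the control list, the strongest of them at -4.46. The larger knockout number on *Kmt2d* went with fewer covered bases.

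*Kmt2a*, which encodes MLL1, had fewer peaks in the knockout list: 14 control peaks covered 3102 bases and 9 knockout peaks covered 2977. Of its control peaks, 6 lay in a stretch of 2639 bp at chr9:44818346-44820984, at least 15111 bp from the 3′ gene end. All 6 were found, on 4 knockout peaks that covered 1712 bases against 1594 in the control list. The fewer knockout peaks there were wider peaks over the same stretch. Over the whole gene 11 of the 14 control peaks were found, and the 3 that were not had log10 FDR values of -4.03, -4.63 and -6.67.

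The paralogs *Kmt2c* and *Kmt2b* kept close peak numbers. *Kmt2c*, the partner of *Kmt2d* at enhancers, had 8 peaks in each list, none of them strong, with best log10 FDR values of -9.97 (percentile 56.6) and -7.89 (percentile 56.9). Of its 8 control peaks 6 were found, 1 of these by 1 shared base only, where both peaks abut. *Kmt2b*, another gene of the MLL family, had 6 control and 5 knockout peaks with best values of -34.7 and -27.7 (percentiles 83.8 and 85.9). *Setd1b* had 5 and 6 peaks, and its covered bases were 2253 and 1564. *Setd1a* had 4 and 5, but for 3 of its peaks in each list the assignment is uncertain, since a second annotated gene of that strand has peaks over the same bases. *Setd7*, a monomethyltransferase that also acts on proteins other than histones, had 2 control peaks and 1 weak knockout peak with a log10 FDR of -2.35.

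**Figure D2:**
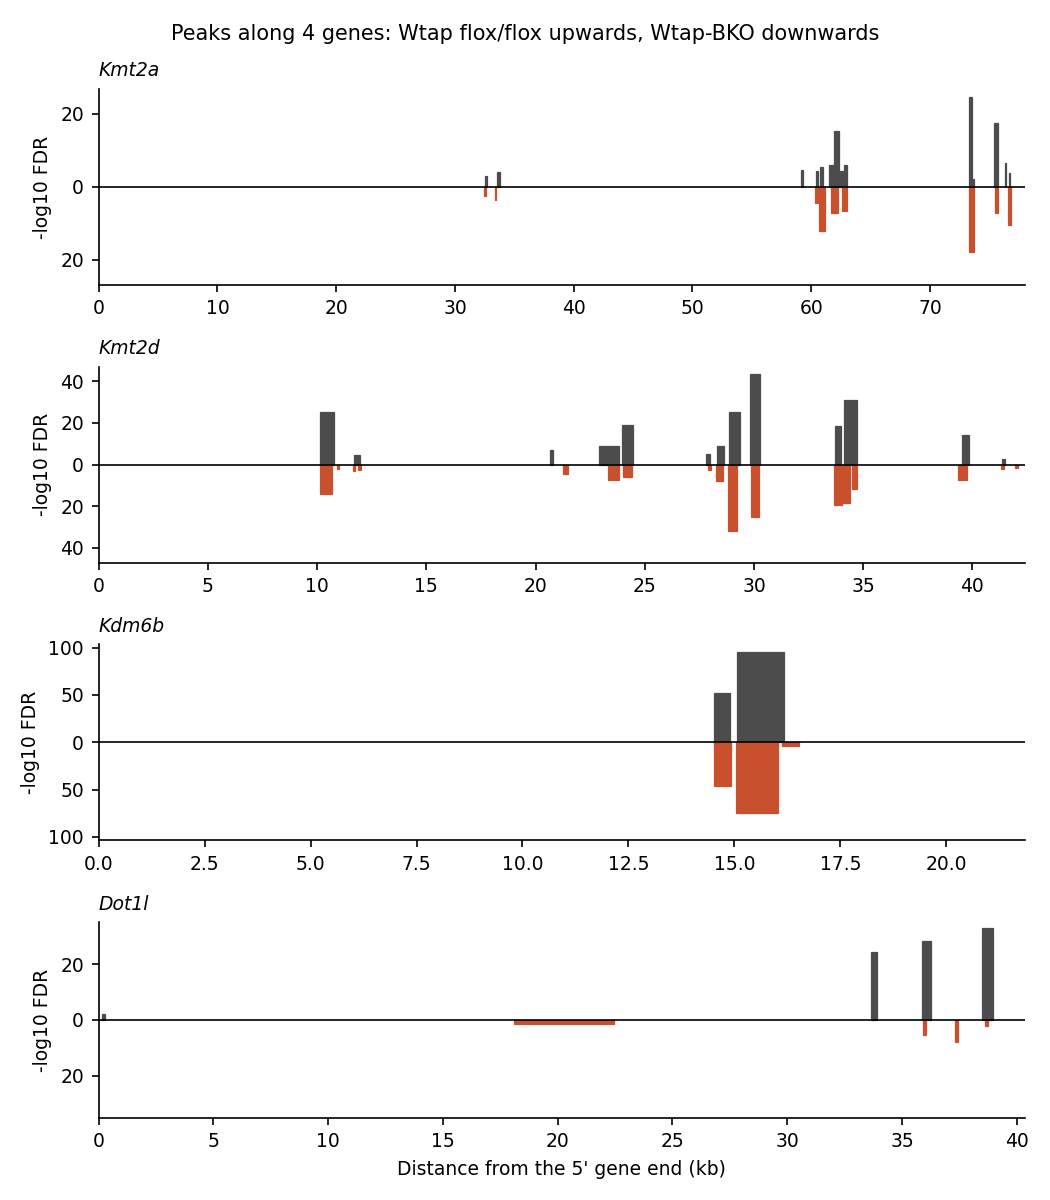
Peaks along *Kmt2a*, *Kmt2d*, *Kdm6b* and *Dot1l* by distance from the 5′ gene end (kb), with bar height the -log10 FDR of the peak in its own list, *Wtap* flox/flox upwards and *Wtap*-BKO downwards. A bar spans the peak from end to end, gaps between its blocks included, and heights share no scale between lists. Control peaks with no knockout peak on them number 3 of 14 in *Kmt2a*, 1 of 13 in *Kmt2d*, 0 of 2 in *Kdm6b* and 2 of 4 in *Dot1l*.

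Of the silencing writers, *Ehmt1* and *Ehmt2*, which form the GLP and G9a complex for H3K9, had 4 and 2 control peaks and 4 and 1 knockout peaks. The strongest *Ehmt1* peak, at chr2:24791455-24792084 near the 3′ gene end, had a log10 FDR of -28.1 (percentile 80.1). On it lay 2 knockout peaks with -12.4 and -7.88 (percentiles 69.2 and 56.9). The control *Ehmt2* peak at chr17:34903474-34905409, spliced in 3 blocks, moved from percentile 59.7 to 92.1, with log10 FDR values of -11.3 and -45.5. Its other control peak, 261 bp from the 3′ gene end, was not found. *Setdb1*, the partner of KAP1, had 2 control peaks, of which that at chr3:95338499-95338858 (log10 FDR of -6.63) was not found. The other was found, with -22.4 and -10.7 (percentiles 75.6 and 65.4). Together 5 of 9 control peaks of H3K9 writers were found (55.6%, Wilson interval 26.7 to 81.1), where 67.8% of all control peaks were. All 6 of their knockout peaks were found (Wilson interval 61.0 to 100), where 68% of all knockout peaks were. Both intervals hold the shares over all peaks, so these counts cannot be called high or low.

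*Ezh1* and *Jarid2*, the members tied to PRC2, had peaks at the same places in both lists. *Ezh1*, the H3K27 writer of cells that do not divide, had 1 peak in each list at nearly the same place, chr11:101192465-101192645 in the control list, with log10 FDR values of -19.0 and -10.3 (percentiles 72.1 and 64.4). *Ezh2*, its paralog of dividing cells, had none in either. *Jarid2*, which brings PRC2 to chromatin, had 2 peaks in each list and all were found. The stronger of them had log10 FDR values of -19.7 and -13.2 (percentiles 73.0 and 71.0).

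Among the H3K36 writers, *Nsd1* and *Setd2* held 7 control peaks each. *Nsd1* had 8 knockout peaks, and 6 of its 7 control peaks were found, with the strongest at log10 FDR values of -99.5 and -63.5 (percentiles 95.5 and 95). *Setd2*, which trimethylates H3K36 along transcribed genes, had 7 knockout peaks, and 6 of its 7 control peaks were found. Its peak at chr9:110573670-110574209 had -40.0 in the control list and -36.6 in the knockout list (percentiles 86.2 and 89.8). *Nsd2*, the gene once called Whsc1, went from 4 control peaks over 844 bases to 1 knockout peak over 151 bases. The 1 peak found had log10 FDR values of -11.2 and -3.73 (percentiles 59.4 and 29.6). The 3 other control peaks were weaker, from -1.96 to -4.77.

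*Dot1l*, the only H3K79 writer, had 4 peaks in each list, but they differed in place and rank. Its control peaks covered 1320 bases and its knockout peaks 482, with 241 bases shared. From 5′ to 3′ the control peaks had log10 FDR values of -2.09, -24.3, -28.3 and -33.0, and the knockout peaks -1.45, -5.44, -7.84 and -2.08. The control peak at chr10:80788734-80789033 (percentile 77.3) was not found. The peak at chr10:80793577-80794085 lay at percentile 83.0 and the knockout peak on it at 5.17, the widest gap of all 122 matched member peaks. The peak at chr10:80790968-80791357 lay at percentiles 80.2 and 44.7. Of the 3 strong control peaks, 1 was not found and the knockout peaks on the others lay at percentiles 44.7 and 5.17.

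The H4K20 writers had 6 control peaks and 9 knockout peaks. *Kmt5a*, the monomethylase of H4K20, had 1 control and 3 knockout peaks, and 2 of the 3 were among the strongest knockout member peaks not found in the control list, at chr5:124450637-124451197 (log10 FDR of -10.3) and chr5:124445516-124445726 (-5.60). *Kmt5b* had 2 and 4 peaks, with 1 knockout peak of 2099 bases lying on both control peaks. *Kmt5c* had 3 and 2 peaks.

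The SET domain genes with other or no histone activity held some of the strongest member peaks. *Setd3*, which encodes the histidine methyltransferase of actin, had the member peak with the smallest FDR in the control list, at chr12:108107327-108108564 in 2 blocks, with log10 FDR values of -142 and -78.2 (percentiles 97.3 and 96.3). *Kmt2e*, a reader of H3K4 methylation without known enzyme activity, had 6 control and 9 knockout peaks, the strongest at -118 and -92.6 (percentiles 96.5 and 97.2). Its peak at chr5:23493187-23493606 ranked lower in *Wtap*-BKO, at percentile 36.8 against 79.9. *Setd5* had 4 and 3 peaks with best values of -109 and -70.5 (percentiles 96.0 and 95.8). *Setd6*, a methyltransferase of the NF-kB subunit RelA, had 1 and 2 peaks. Member peaks at or above percentile 95 were 6 of 162 in the control list (3.70%, with 5% of all control peaks) and 6 of 158 in the knockout list (3.80%, with 4.99% of all). They lay on 6 genes in each list, and *Kdm6b*, *Kmt2e*, *Nsd1*, *Setd3* and *Setd5* were in both sets.

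The erasers had fewer peaks each. The H3K27 demethylase gene *Kdm6b* held a strong pair of peaks. The wide one, at chr11:69404193-69405302, had a log10 FDR of -95.1 in the control list and -74.8 in the knockout list (percentiles 95.2 and 96.1). That at chr11:69405481-69405841 had -52.2 and -46.7 (percentiles 89.8 and 92.4). The remaining knockout peak was weak, at -4.34. *Kdm6a*, its X-linked paralog, had 1 peak in each list with -8.78 and -5.97 (percentiles 53.5 and 48.3). The *Kdm2a* gene of an H3K36 demethylase had 5 control and 6 knockout peaks, 4 of the 5 were found, and the strongest had -104 and -62.2 (percentiles 95.8 and 94.8). Its strongest knockout peak without a control peak had -3.71, and that of *Nsd1* had -3.68.

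Of the H3K9 demethylase genes, *Kdm7a* had 1 peak in each list, but not at the same place. The control peak, at chr6:39142908-39143267 and 6468 bp from the 3′ gene end, had a log10 FDR of -35.6 (percentile 84.3) and was the strongest control member peak not found. The knockout peak lay nearer the 3′ end, at chr6:39138987-39139137, with -3.57 (percentile 27.9). *Kdm3a*, an H3K9 demethylase known for its part in brown fat thermogenesis, had 2 control peaks. That at chr6:71611636-71611905 was found, with -22.3 and -6.95 (percentiles 75.5 and 53.1), and that 645 bp from the 3′ gene end (-9.62) was not. *Kdm4a* went the other way, with 1 control and 3 knockout peaks, and its 2 additional knockout peaks had log10 FDR values of -7.39 and -7.36. *Kdm4b* had 3 and 2 peaks, and the strongest had -55.4 and -17.1 (percentiles 90.5 and 77.0).

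Among the H3K4 demethylases, *Kdm1a*, the flavin enzyme LSD1, had 2 peaks in each list. All were found, at log10 FDR values of -8.50 and -3.04 in the control list (percentiles 52.5 and 17.5). In the knockout list they had -8.18 and -3.71 (percentiles 58.0 and 29.4). *Kdm1b* had 1 peak in each list, at -15.2 and -4.43 (percentiles 67.0 and 36.9). *Kdm5a* had 4 and 2 peaks. Its peak at chr6:120438995-120439355 lay at percentiles 84.5 and 49.9, whereas that at chr6:120431864-120438444, in 2 blocks, lay at 81.6 and 92.0, so 2 peaks of 1 gene changed rank in opposite directions. Its other control peaks were not found. *Kdm5c* on the X chromosome had 2 peaks in each list, and its control peak at chrX:152271179-152271569 (log10 FDR of -8.37) was not found. Its Y-linked paralog *Kdm5d* had 2 and 3 weak peaks.

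The 7 PRDM genes had 16 control and 13 knockout peaks, the most of them on *Prdm2*. *Prdm2*, whose product RIZ1 is a putative H3K9 methyltransferase, carried 8 of the 16 control peaks, all within 4279 bp at chr4:143131755-143136033. Of the 8, 6 were found, on 5 knockout peaks that covered 2577 bases against 2312, and the stronger of the 2 not found had a log10 FDR of -7.19. *Prdm4* had 3 control and 2 knockout peaks, and 1 knockout peak of 510 bases lay on 2 control peaks, so that the weaker of these, at percentile 11.7, was set against a peak at 65.6. *Prdm10* had 1 peak in each list at different places. *Prdm9*, the meiotic H3K4 methyltransferase that places recombination sites, had 1 control peak with a log10 FDR of -27.1 (percentile 79.4), and the knockout peak on it had -7.97 (percentile 57.3). By IP to input ratio these peaks lay at percentiles 98.9 and 55.2 of their lists.

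Over all members, 122 of 162 control peaks were found in the knockout list, 75.3% (95% Wilson interval 68.1 to 81.3), where 67.8% of all control peaks were found. The other 40 (24.7%) were not, against 32.2% of all control peaks. In the other direction 125 of 158 knockout peaks were found, 79.1% (72.1 to 84.7), where 68% of all knockout peaks were, and 33 (20.9%) were not, against 32% of all. Of writer control peaks 84 of 110 (76.4%) were found and of eraser control peaks 26 of 34 (76.5%), a difference of -0.107 percentage points with a 95% Newcombe interval of -14.2 to 17.8. Without the 5 SET genes of other or no histone activity, 72 of 94 writer control peaks (76.6%) were found. For knockout peaks the shares were 80.6% and 80%, with a difference of 0.556 points (-12.5 to 17.7). These intervals are wide enough to hold differences of over 10 points either way. The PRDM genes had 10 of 16 control peaks found (62.5%, 38.6 to 81.5). Peaks of 1 gene share their transcript and 1 sample, and the intervals cover counting error only.

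**Figure D3:**
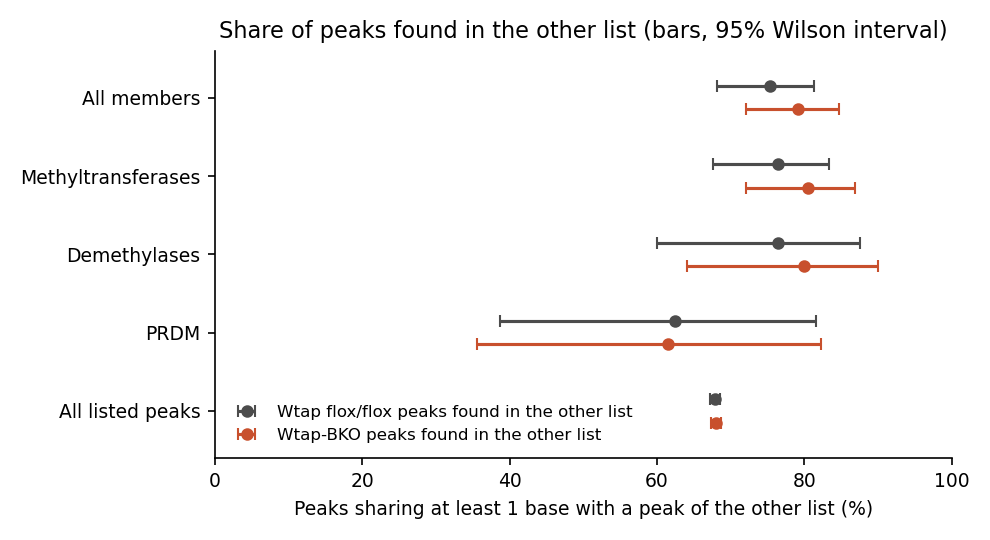
Share of peaks that share at least 1 exonic base with a peak of the other list (%), for *Wtap* flox/flox peaks found in *Wtap*-BKO and the reverse, with points for the share and bars for the 95% Wilson interval. Writers (76.4%) and erasers (76.5%) lie together, and the intervals of the PRDM genes span the shares of all listed peaks.

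Whether a peak was found went with its rank. At or above percentile 80, 28 of 29 control member peaks were found, where 90.6% of all control peaks of that rank were, and the exception was the *Kdm7a* peak. From percentile 60 to 80, 38 of 39 were found (82.6% over all peaks), and the exception was *Dot1l*. Below percentile 20 it was 7 of 25 (41.5% over all peaks). Members had no excess of peaks at or above percentile 80. There lay 29 of 162 control member peaks, with 3665 of all 18400, and 25 of 158 knockout member peaks, with 3725 of all 18693. Peaks with an FDR under 1e-05 were somewhat more frequent among members. They were 111 of 162 control peaks (68.5%), with 63.1% of all control peaks, and 100 of 158 knockout peaks (63.3%), with 58.4% of all knockout peaks. Of these control peaks 88.3% were found among all knockout peaks and 80.2% among knockout peaks under the same limit, where over all genes the shares were 79.6% and 66.2%. In the other direction they were 95% and 91%, with 84.6% and 71.9% over all genes. On genes with fewer than 3 control peaks the share found was 26 of 39 (66.7%), and over all such genes it was also 66.7%. On genes with 3 or more it was 96 of 123 (78.0%), with 69.3% over all such genes. For knockout peaks on the same 2 classes of genes, split again by control peaks, it was 27 of 43 (62.8%, with 59.9% over all such genes) and 98 of 115 (85.2%, with 82.8%). The knockout shares of members were within 3 points of those of all genes in each class. The control share on genes with 3 or more control peaks was higher for members, at 78.0% against 69.3%. The split by control peaks itself bears on how many knockout peaks can be found.

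Peaks were also joined or split between the lists. Of the control member peaks, 13 of 162 had 2 or more knockout peaks on them, where 6.08% of all control peaks did, and 10 of 158 knockout member peaks had 2 or more control peaks on them, where 5.08% of all did. Matching ignored the gene, so some *Setd1a* peaks of both lists reached 2 only through peaks of the second annotated gene there. Peaks in 2 or more blocks, which span splice junctions, were 16 of 162 control member peaks, where 15.4% of all control peaks were of this kind. In the knockout list they were 18 of 158 member peaks, where 19.8% of all knockout peaks were. Both member shares were lower than those over all peaks. Members had 55193 exonic bases under control peaks and 48441 under knockout peaks, 87.8% of the former, and over all genes the knockout total was 90.7% of the control total. Of the 44 genes in both lists, 31 had fewer covered bases in *Wtap*-BKO, with 53.2% of all genes in both lists. This held for 16 of 23 writers and 12 of 16 erasers, and the median ratio of knockout over control bases was 0.883 for writers and 0.779 for erasers, with 0.943 over all genes. The lowest ratios were 0.179 for *Nsd2*, 0.252 for *Setd7* and 0.365 for *Dot1l*, and the highest were 2.63 for *Kdm4a* and 2.50 for *Kmt5a*. With 1 pooled sample per genotype and unknown depth, these ratios have no error.

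For the 122 matched control peaks, the rank percentile minus that of the strongest knockout peak on it had a median of -0.347 points, with 59 peaks higher in the control list and 63 lower. The control rank was the higher in 48.4% of matched member peaks and in 43.6% of all matched control peaks. Seen from the knockout list, 55 of 125 matched member peaks (44%) had the higher rank there, with 52% of all. Writers lay at a median of -0.347 and erasers at 5.55, with 16 of 26 eraser peaks higher in the control list, and PRDM genes at -7.84, with 2 of 10 higher. Beyond *Dot1l*, the widest gaps above were 43.0 points for a *Kmt2e* peak, 36.3 for *Setd1a* and 34.7 for *Kdm5a*. The widest gaps below were 71.9 points for a *Kmt2a* peak of 91 bases, 53.9 for *Prdm4*, 46.5 for *Kmt2b*, 37.6 for a second *Kmt2a* peak and 35.1 for *Kmt5b*. In each of these but the second *Kmt2a* peak, the weak control peak lay under a knockout peak that also covered a stronger control peak beside it.

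**Figure D4:**
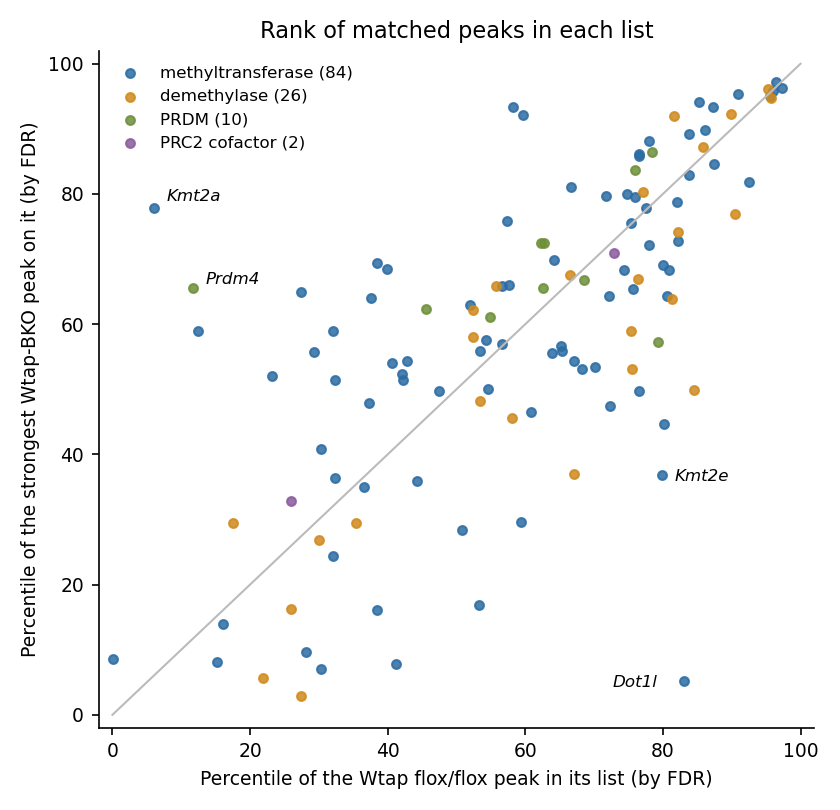
Rank percentile of each control member peak that was found (horizontal axis, percent of *Wtap* flox/flox peaks with a larger FDR) against that of the strongest *Wtap*-BKO peak on it (vertical axis), with 1 point per peak, colours for roles and a line of equal rank. Strong peaks gather at the upper right near the line, and *Dot1l* lies far below it, at percentiles 83.0 and 5.17.

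Member peaks lay far from gene ends. Measured from the centre of their exonic bases to gene ends of a RefSeq table, 13 of 161 control peaks (8.07%, 4.78 to 13.3) were within 1000 bp of the 3′ end, where 21.5% of all control peaks were. For knockout peaks it was 10 of 157 (6.37%), with 19.2% of all. Near the 5′ end there were 8 control peaks (4.97%, with 10.2% of all) and 7 knockout peaks (4.46%, with 11.4% of all). The median distance to the 3′ end was 12948 bp in the control list, against 3197.5 bp over all peaks. These distances count introns, and exon, stop codon and UTR positions were not analysed here. Among genes of at least 20000 bp the share near the 3′ end was 6.49% for member control peaks (3.57 to 11.5) and 16.1% for all control peaks, and among genes with 3 or more control peaks it was 6.50% and 14.2%.

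Writers and erasers were also set side by side by place. Within 1000 bp of the 3′ end lay 7 of 110 writer control peaks (6.36%) and 6 of 33 eraser control peaks (18.2%), with 21.5% of all control peaks. Within 2000 bp the shares were 14.5% and 36.4%, with 37.6% of all. Median distances were 13956 and 5399 bp, with 3197.5 bp over all control peaks. In the knockout list the shares within 1000 bp were 4.63% and 11.8%, with 19.2% of all knockout peaks, and the medians 14226 and 5756 bp. No control PRDM peak of 16 lay in the window. Runs of 3 or more control peaks with gaps of at most 1000 bp were present on 10 of 48 member genes (20.8%), where 8.63% of all genes in the control list had one. Among genes with 3 or more control peaks the shares were 45.5% and 40.8%. The members had 11 such runs with 43 peaks. Of these genes 7 were writers, with the runs on *Kmt2a*, *Kmt2b*, *Kmt2c*, *Kmt2d*, *Kmt2e*, *Nsd1* and *Setd2*. Of the 43 peaks, 36 (83.7%) were found, with 69.9% of peaks in runs over all genes.

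**Figure D5:**
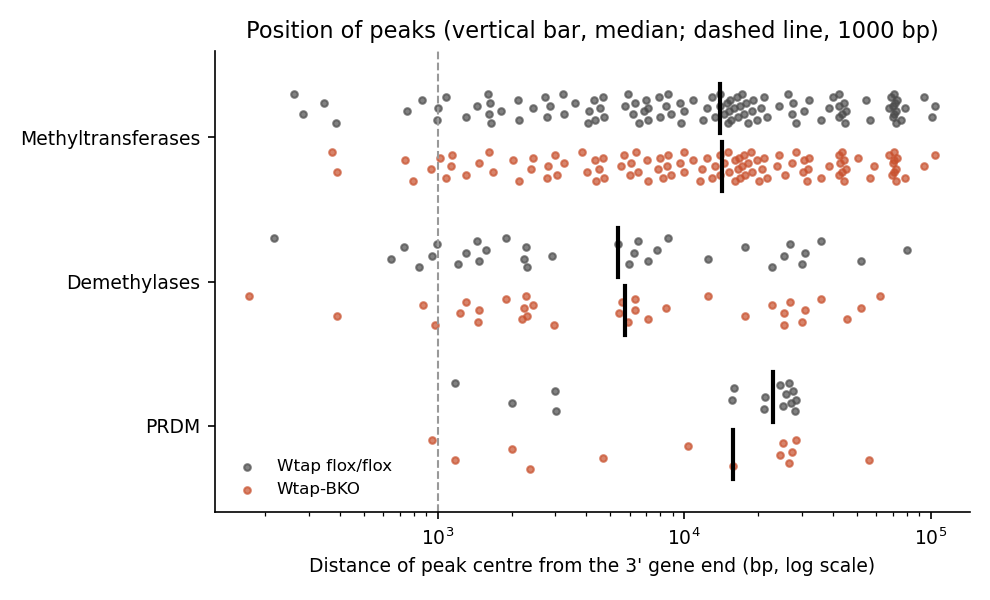
Distance of each member peak's centre from the 3′ gene end (bp, log scale) for writers, erasers and PRDM genes in both lists, with 1 point per peak, vertical bars at the medians and a dashed line at 1000 bp; vertical scatter within a row has no meaning. Medians of writers (13956 and 14226 bp) lie to the right of those of erasers (5399 and 5756 bp) in both lists.

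The partners of these enzymes had peaks in both lists for most of their genes. Of 56 genes for related enzymes and for subunits of their complexes, 37 had peaks in both, 7 in the control list only (*Epop*, *Hr*, *Phf8*, *Rcor1*, *Smyd4*, *Smyd5* and *Uty*), 3 in the knockout list only (*Hmg20b*, *Mllt3* and *Rbbp7*) and 9 in neither. Of the 47 with a peak, 78.7% were in both lists, 14.9% in the control list only and 6.38% in the knockout list only, where over all genes the shares were 70.1%, 15% and 14.9%. Of their 100 control peaks 67 (67.0%) were found, with 67.8% of all control peaks. The related enzymes had 7 of 14 genes in both lists and 5 in the control list only, and 18 of their 31 control peaks (58.1%) were found. COMPASS subunits, the partners of the H3K4 writers, were in both lists for 11 of 12 genes, with 20 of 23 control peaks found, and *Dpy30* had no peak. PRC2 subunits had 6 of 9 genes in both lists and 6 of 9 control peaks found, and the H3K9 and HP1 group 4 of 8 genes and 5 of 9 peaks. LSD1 complexes had 4 of 7 genes and 4 of 9 peaks, and *Dot1l* partners 5 of 6 genes and 14 of 19 peaks. *Mllt3*, which encodes the DOT1L partner AF9, had 3 knockout peaks and no control peak.

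Markers of brown adipocytes, of other cell types and of skeletal muscle were listed too. Peak numbers were 25 and 29 for brown adipocyte markers in the control and knockout lists, 6 and 15 for macrophage markers, 0 and 3 for lymphocyte markers, 7 and 8 for fibroblast markers and 3 and 10 for skeletal muscle markers. None of 8 lymphocyte markers had a control peak and 3 (*Cd4*, *Cd8a* and *Ptprc*) had a knockout peak. Macrophage markers had peaks in both lists for 5 of 8 genes and in the knockout list only for *Mrc1* and *Msr1*, and muscle markers for 3 of 8 and for *Myh1*, *Myh2*, *Tnnt3* and *Ttn*. Over all genes with a peak in either list, 14.9% had peaks in the knockout list only. The marker counts also take in markers with no peak. The members are expressed in many cell types, and the part of cell makeup in the values above was not tested.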

How the data were processed

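The deposited data used were 2 peak lists, 1 per genotype, each made by the authors from 1 IP and 1 input sample pooled from 8 mice. The submitters' processing notes name fastp 0.19.11, BWA 0.7.12, HOMER 4.9.1 and GRCm38.p6. The methods name MACS2 for peak detection, while the deposited tables are laid out as exomePeak writes them (peaks in spliced blocks, keyed by Ensembl gene), and the values do not settle which was used. The deposited columns hold the authors' p-value of each peak, log10 scores of that p-value and of its FDR, and a fold enrichment, a ratio of IP over input whose scaling for library size is not given in the sources used here. The largest FDR was 0.0447 in the control and 0.0479 in the knockout list, and 0 columns of per-sample values were left unused.

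From the lists, members were taken by symbol and peaks were matched by shared exonic bases (at least 1) on the same strand, whatever the gene. Python 3.11.15, numpy 2.4.6, scipy 1.17.1 and matplotlib 3.10.9 were used, and the matching was tested on simulated data. Start positions were moved to count from 1. Distances used gene ends from RefSeq (GRCm38.p6) and peaks inside gene spans of at least 3000 bp, which held 161 of 162 control member peaks. Shares have 95% Wilson intervals and a difference of shares a Newcombe interval. No test between genotypes was possible with 1 sample each, and read depth is unknown. Members, roles, lists and the rule for named genes were chosen with earlier results of these data known. That rule names members with peaks in 1 list only, the 10 with the most control peaks, a fixed set of enzymes, the 8 strongest peaks of each list not found in the other, and the matched peaks with the 5 widest rank gaps each way. Other genes, covered bases per gene, runs of peaks and the strata by gene span or peak number were chosen after the values were seen. Alternatives for overlap, FDR and window were tried.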

Additional observations from a re-analysis of the deposited data

How the results depend on the processing

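The share of control member peaks found in *Wtap*-BKO was 96.3% when any peak of the same gene counted and 88.3% for peaks with an FDR under 1e-05 against all knockout peaks, beside 75.3%. For knockout member peaks it was 98.7%, 95% and, with the FDR under 1e-05 in both lists, 91.0%, beside 79.1%. For the same-gene alternative no share over all peaks is given here. Shares stayed within their intervals when 50% of the bases or at least 2 bases had to be shared, without *Kmt2a* and without the PRDM genes, of which the alternatives of 2 bases and of no PRDM genes were chosen after the data were seen. With 50% of the bases the shares were 68.5% for control and 76.6% for knockout member peaks. No share over all peaks is given here for that rule, so members were not compared with all peaks under it. The writer minus eraser difference, -0.107 points, changed sign under 4 alternatives, to 7.33 for peaks with an FDR under 1e-05 in their own list, 0.833 with that limit in both lists, 0.125 without the SET genes of other or no histone activity and 0.180 without *Kmt2a* and *Kdm2a*. It was -6.26 with 50% of the bases shared and -1.02 with 2 bases. Requiring an FDR under 1e-05 in 1 list and no listed peak in the other left 0 control-only and 0 knockout-only members. With the FDR under 1e-05 in both lists, 42 members had a peak in either list. Of these 5 were control-only, *Kdm1b*, *Kdm7a*, *Nsd2*, *Prdm10* and *Setd7*, none of them among the 4 named before, and 0 were knockout-only. The shares over all genes at this limit are not given here, so these counts cannot be called high or low. Over all peaks, 63.1% of control and 58.4% of knockout peaks passed the limit. The 3′ window of 500 bp held 3.11% of control and 2.55% of knockout member peaks, with 11.1% and 9.55% of all peaks. That of 2000 bp held 18.6% and 15.9%, with 37.6% and 34.3% of all. The median rank difference of matched peaks was -1.04 when the knockout peak had to share 50% of the bases, an alternative also chosen after the data were seen. No replicate could be left out. No paired analysis was possible because each genotype had 1 IP and 1 input sample. Depth limits all absences, since the lists give no counts.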
